A study of Saccharomyces cerevisiae with 30 samples.

Results

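The *mrc1-AQ cdc45-2A* strain of budding yeast was compared between 20 min after the removal of hydroxyurea (HU) and the HU block that preceded it, using 2 libraries at 20 min and 2 libraries in the HU block out of 30 libraries in all. The libraries were taken by the genotype and time point that the sample labels give. The *mrc1-AQ* allele removes sites of Mrc1 (Claspin) that Mec1 phosphorylates and *cdc45-2A* removes motifs of Cdc45, and both changes disrupt binding of the checkpoint kinase Rad53 to the replisome. Cells of all groups were arrested in G1 with alpha factor, released into 200 mM HU to stall forks and, for the 20 min group, washed into medium without HU. Used for comparison were wild type libraries and those of *mrc1-AQ cdc45-2A pol1-1A*, in which the binding of Pol1 to Rad53 is also disrupted, with 2 at each time point after the same treatment. The *pol1-1A* single mutant, treated likewise, is not described, but its 6 libraries are among the 24 that set the spread in the tests, and its HU block replicates correlated least (r = 0.832). Window sums cannot show the point mutations, so that the genotype rests on the labels.

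Replication starts at origins, from which a pair of forks moves apart. HU inhibits ribonucleotide reductase, and forks stall close to their origins when nucleotides run out. The checkpoint kinase Rad53 then holds back origins that have not yet fired and protects stalled forks, which resume when HU is washed away. TrAEL-seq labels 3′ DNA ends, mainly those of the leading strand, so that a fork population shows as a peak of reads and its movement as a shift of that peak. The windows used here are 2 kb wide, start every 200 bp and hold the reads of both strands, given relative to all mapped reads of the library (RPM).

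The libraries held 9183888 and 9175153 mapped reads at 20 min, against 4413039 and 7537299 reads in the HU block. The median window held 803 and 649 reads at 20 min and 279 and 314 reads in the HU block. Replicates correlated across windows with r = 0.984 at 20 min and r = 0.970 in the HU block (log2 scale, across windows that are not independent). All strains of a time point and replicate were processed in the same pool, so that each time point lay in pools of its own and time and pool cannot be told apart by the design. Each pool also held a spike-in of asynchronous wild type DNA. The number of reads per spike-in read was 7.21 and 16.8 at 20 min, against 3.50 and 5.65 in the HU block, which is 2.06 and 2.98 times as many. All strains of a pool share its spike-in count. The ratio of 20 min to HU block was 1.49 and 1.51 in the wild type and 1.95 and 2.14 in *mrc1-AQ cdc45-2A pol1-1A*. RPM values hide any such rise in total signal, so all changes below are changes in how the reads were spread over the genome. The labels give replicate numbers and do not name separate cultures, and p-values measure the spread between these libraries.

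Reads were spread over more of the genome 20 min after release. The windows that hold 50% of the reads made up 15.7% and 14.2% of all windows at 20 min, against 11.0% and 9.05% in the HU block. The 5% of windows with the most reads held 20.6% and 22.4% of them at 20 min, and 28.9% and 32.9% in the HU block. The median window had 87.4 and 70.7 RPM at 20 min and 63.2 and 41.7 RPM in the HU block. On each of these measures both 20 min libraries lay on the same side of both HU block libraries. With 2 libraries against 2 an exact permutation test cannot go below p = 0.33. The share of windows that hold 50% of the reads also rose in the comparison strains. It was 11.4% and 10.9% at 20 min against 8.78% and 6.36% in the HU block of the wild type. In *mrc1-AQ cdc45-2A pol1-1A* it was 12.3% and 11.9% at 20 min against 8.52% and 8.12% in the HU block.

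Origins were taken as midpoints of neighbouring wild type HU block peaks 4 to 9 kb apart, which gave 136 origins, since no list of ARS elements was used here. Windows were grouped by their distance to the nearest of these origins. Within 2 kb of an origin lay 7.23% and 7.29% of the reads at 20 min, against 18.9% and 21.1% in the HU block. Between 5 and 10 kb lay 21.9% and 23.8% of the reads at 20 min and 14.2% and 12.7% in the HU block. Signal therefore lay farther from origins at 20 min. The share at 2 to 5 kb changed less, with 23.2% and 24.6% at 20 min against 26.5% and 30.2% in the HU block. More than 20 kb from any of these origins lay 32.9% and 31.1% of the reads at 20 min and 27.4% and 25.0% in the HU block.

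Of 5791 windows that do not overlap, 1456 differed at 20 min against the HU block (25.1% of the windows, limma-trend on log2(RPM + 1) over 24 libraries, adjusted p under 0.05), 989 of them higher (17.1%) and 467 lower (8.06%). All of the 1456 windows changed in the same direction in both replicates. They were called from these same libraries, which largely fixes that agreement. The median change of the higher windows was 1.33 (log2), from 0.47 to 2.85, and that of the lower windows was -1.37, from -2.29 to -0.49. Higher windows lay a median of 8400 bp from an origin and lower windows 1800 bp. Over all windows the median change was 0.30. The directions are relative to all mapped reads. Scaled to the spike-in reads of the pool, 1464 windows were called, all 1464 of them higher and 0 lower, with a median change of 1.57. The count rests most on replicate 2 of the HU block, without which 955 windows were called. A fit of only the 4 libraries compared called 2231.

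The calls followed distance from the origin. Within 2 kb, 245 of 265 windows were lower and 0 were higher, with a median change of -1.53. At 2 to 5 kb, 113 of 406 windows were higher and 121 lower, so that rises and falls met in this range. At 5 to 10 kb, 478 of 656 windows were higher (72.9%) and 25 lower, with a median change of 1.10. From 10 to 20 kb, 103 of 1087 were higher and 34 lower, and beyond 20 kb 295 of 3377 were higher and 42 lower. In the wild type, 363 of 406 windows at 2 to 5 kb were lower and 3 higher, and at 10 to 20 kb 443 of 1087 windows were higher. At 5 to 10 kb 485 of 656 wild type windows were higher (73.9%), a share close to that of the mutant. The origins were read from peaks of the same wild type HU block libraries, so that the 2 to 5 kb class holds windows chosen for a high wild type level in the HU block, and the wild type falls there are a description with no test.

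**Figure D1:**
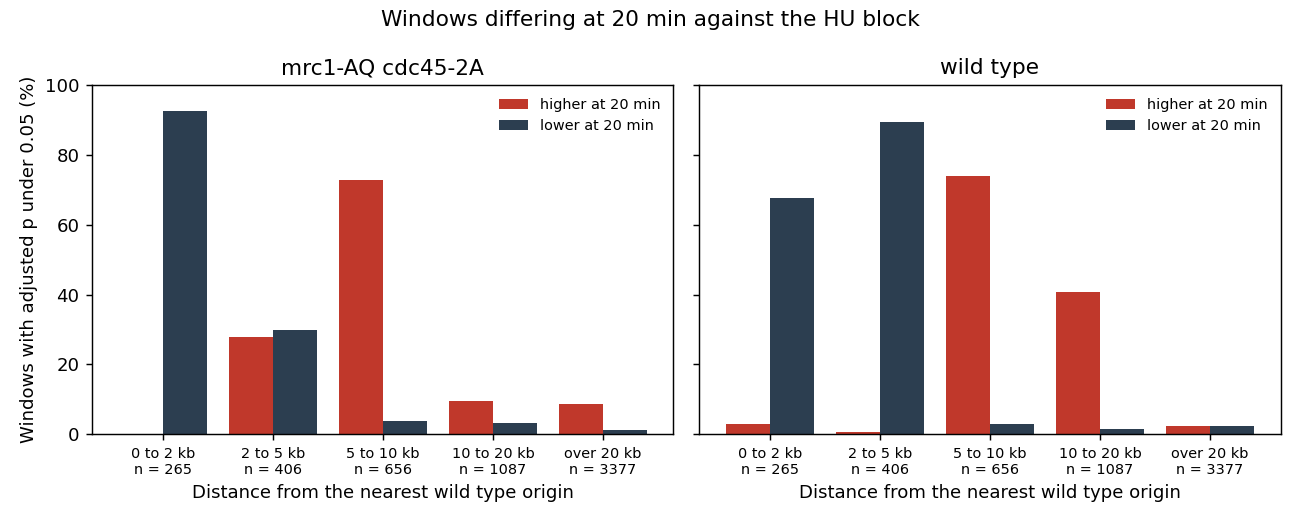
Share of 2 kb windows (y axis, %) that were higher or lower at 20 min than in the HU block (limma-trend, adjusted p under 0.05) by distance from the nearest wild type origin (x axis), in *mrc1-AQ cdc45-2A* (left) and wild type (right). Rises peak at 5 to 10 kb both in *mrc1-AQ cdc45-2A* (72.9%) and in the wild type (73.9%). At 10 to 20 kb 9.48% of windows were higher in *mrc1-AQ cdc45-2A* and 40.8% in the wild type.

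The difference between the strains was tested as an interaction in the same fit. The change over 20 min differed at 949 windows (16.4% of 5791, limma-trend, adjusted p under 0.05), with the change of *mrc1-AQ cdc45-2A* above that of the wild type at 643 (11.1%) and below it at 306 (5.28%). At 2 to 5 kb from an origin it was above the wild type at 297 of 406 windows and below it at 1, a split on which the choice of origins from wild type HU block peaks bears. At 5 to 10 kb it was above at 101 and below at 104 of 656 windows. At 10 to 20 kb it was above at 25 and below at 123 of 1087 windows. Beyond 20 kb it was above at 209 and below at 33 of 3377 windows. Within 2 kb it was above at 11 and below at 45 of 265 windows, so that the direction of the difference changed with distance. The interaction gave 626 windows without replicate 2 of the mutant at 20 min, 612 without replicate 2 of the wild type at 20 min and 0 when scaled to the spike-in reads (limma-trend, 417 without adjustment).

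The calls also followed distance from the peaks of the mutant itself, over all windows. Of the windows 3 to 5 kb from a peak seen in both *mrc1-AQ cdc45-2A* HU block libraries, 330 of 522 were higher (63.2%) and 20 lower. Of the windows more than 10 kb from any such peak, 75 of 3122 were higher and 3 lower. The windows on the peaks themselves, within 1 kb, were lower in 212 of 331 cases and higher in 2. These peaks were read from the same HU block libraries as the contrast. Falls on them and rises away from them are therefore given as a description. In the wild type, 201 of the same 331 windows within 1 kb were lower and 23 higher. Of the 522 windows at 3 to 5 kb, 157 were higher in the wild type and 66 lower. All 16 chromosomes held windows of both directions, and the share of lower windows ranged from 4.28% on chromosome XIV to 13.6% on chromosome III.

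Arms of 20 kb on either side of an origin were used to follow fork position in the population of cells. Weak origins and arms in which the wild type showed a second HU block peak were left out. This gave 132 arms from 81 origins, all set by wild type HU block peaks, which bears on the wild type changes along arms and on the differences between the strains there. The highest window of the smoothed profile was taken as the fork position. Its median distance from the origin was 4300 and 4600 bp at 20 min (mean 4450 ± 212 bp, SD, n = 2), against 2300 and 2400 bp in the HU block (2350 ± 70.7 bp, SD, n = 2). The change of 2100 bp split into 2000 and 2200 bp for the replicates, which is larger than the spread between replicates, although the exact permutation test gave p = 0.33, the smallest it allows. The fork lay farther out at 20 min in both replicates at 132 of 132 arms.

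**Figure D2:**
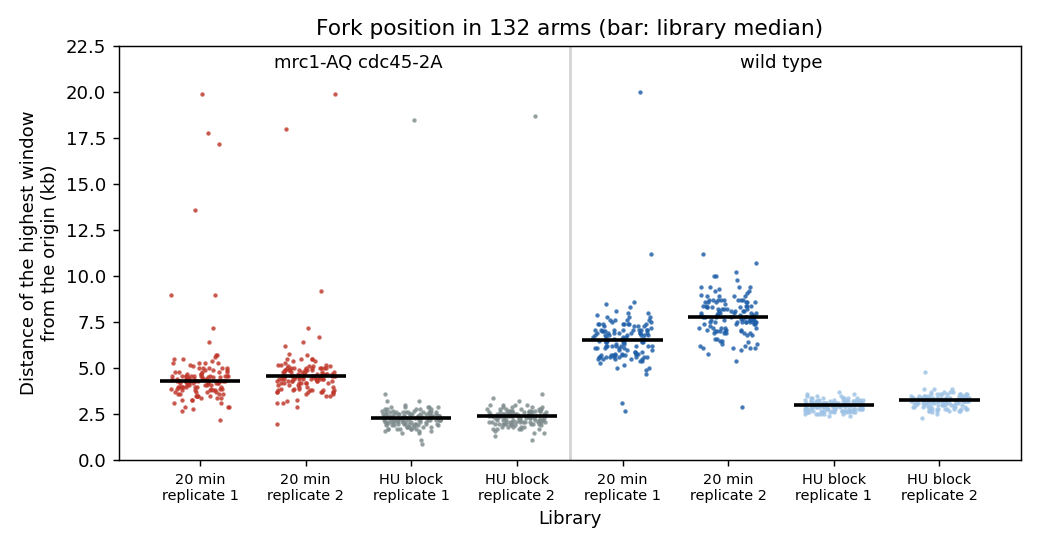
Distance of the highest window from the origin (y axis, kb) in 132 arms (points) of each library (x axis), with the library median as a bar. Medians were 4.3 and 4.6 kb at 20 min against 2.3 and 2.4 kb in the HU block for *mrc1-AQ cdc45-2A*, and 6550 and 7800 bp at 20 min against 3000 and 3250 bp in the HU block for the wild type.

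The size of the move was similar from arm to arm. It lay between 1000 and 3000 bp at 118 arms, its quartiles were 1800 and 2500 bp, and it was more than 5000 bp at 4 arms. Across arms the moves of both replicates correlated with r = 0.678 and rho = 0.758, which describes arms that share libraries and are not independent. Taken singly, 88 of 132 arms differed (66.7%, limma on the distance in bp, adjusted p under 0.05), all 88 outward, and 97 did so without adjustment. Without replicate 2 at 20 min 54 arms were called, and without replicate 1 of the HU block 58. In the wild type the median distance was 6550 and 7800 bp at 20 min against 3000 and 3250 bp in the HU block, and 121 arms were called (91.7%). The move was shorter in *mrc1-AQ cdc45-2A* than in the wild type at 126 of 132 arms. Tested arm by arm, the moves differed between the strains at 36 arms (27.3%, limma interaction, adjusted p under 0.05), shorter in the mutant at 35 and longer at 1.

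A few arms show what a typical move looked like, chosen after their values were seen as those nearest the median of the called arms. On the right of the origin at 613101 of chromosome X, between *JJJ3* and *YJR098C*, the fork lay at 4300 and 4700 bp at 20 min, against 2100 and 2300 bp in the HU block. The highest window there had 782 and 801 RPM at 20 min and 1121 and 1248 RPM in the HU block. On the right of the origin at 145401 of chromosome V, between *YEA6*, a mitochondrial NAD transporter, and *VAB2*, the fork lay at 4600 and 4800 bp at 20 min and at 2400 bp in both HU block libraries. At both origins the groups did not overlap, and the peak moved outward and became lower.

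Lower and wider peaks were seen at most arms. The height of the highest window fell at 116 of 132 arms (87.9%, limma on log2 height, adjusted p under 0.05) and rose at 0, with a median change of -0.58 and 119 arms without adjustment. The median height was 693 and 725 RPM at 20 min, against 999 and 1071 RPM in the HU block. In the wild type the height fell at 127 arms and rose at 1, with a median change of -0.62. The change in height differed between the strains at 11 of 132 arms (limma interaction, adjusted p under 0.05). It was above the wild type at 7 and below it at 4. The width at 50% of the height changed at 89 arms (67.4%), wider at 87 and narrower at 2, and its median was 5400 bp in both 20 min libraries against 4200 bp in both HU block libraries. The widening was smaller than in the wild type, where 129 arms were wider (97.7%). The change in width differed between the strains at 81 arms (61.4%), less in the mutant at all 81. The summed signal of the arm changed at 62 arms (47.0%), lower at 53 and higher at 9, whereas in the wild type it changed at 73 (55.3%), higher at 72 and lower at 1. This difference between the strains passed the threshold at 86 arms (65.2%), with the change lower in the mutant at all 86.

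Averaged over the arms, the profile of *mrc1-AQ cdc45-2A* was highest at 4200 and 4400 bp from the origin at 20 min, against 2200 bp in both HU block libraries. The highest value was 3.99 and 4.42 times the mean window at 20 min, and 6.30 and 7.19 times in the HU block. At the origin itself the signal was 1.00 and 1.11 times the mean window at 20 min, against 3.12 and 3.57 times in the HU block. The 20 min value at the origin was close to the mean window in both libraries. At 8000 bp the signal was 1.81 and 1.94 at 20 min and 1.07 and 0.809 in the HU block.

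**Figure D3:**
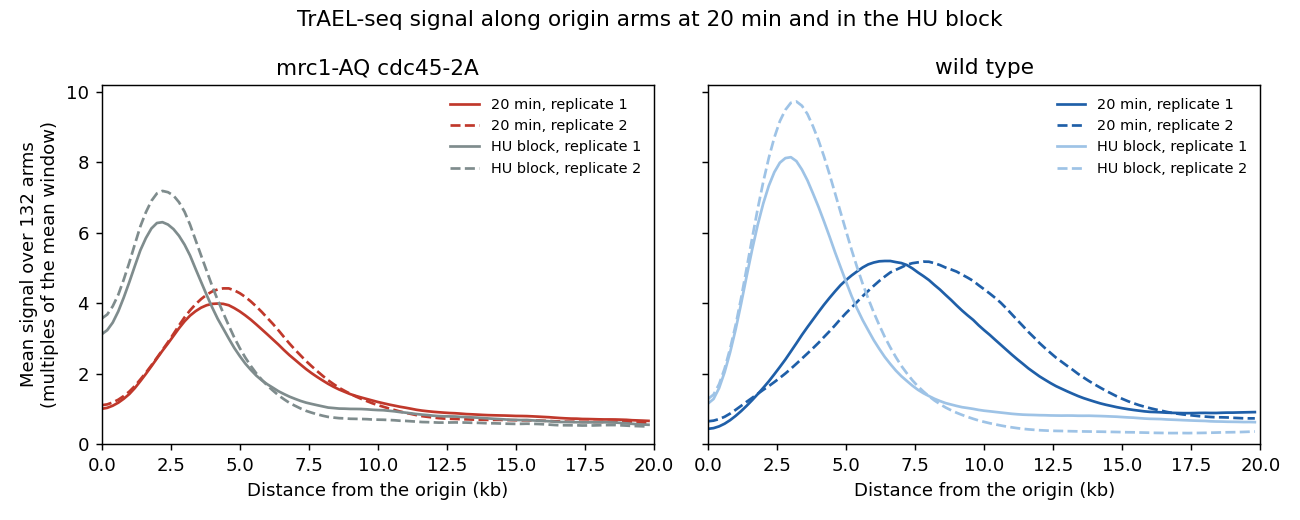
Mean signal over 132 arms (y axis, multiples of the mean window of the library) by distance from the origin (x axis, kb) in *mrc1-AQ cdc45-2A* (left) and wild type (right). In *mrc1-AQ cdc45-2A* the maximum lies at 4.2 and 4.4 kb at 20 min and at 2.2 kb in the HU block, with lower and wider peaks at 20 min.

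The 5 called arms with the largest outward change were read in each library, and no arm was called inward. Left of the origin at 412201 of chromosome IX, inside *DCG1*, the fork lay at 9000 and 9200 bp at 20 min against 3600 bp in both HU block libraries (a change of 5500 ± 762 bp, standard error, with limma adjusted p = 8.42e-05). Left of the origin at 815201 of chromosome XIII, inside *RCE1*, which encodes a protease of prenylated proteins, it lay at 7200 bp in both 20 min libraries and at 2200 bp in both HU block libraries (a change of 5000 ± 1457 bp, standard error, with limma adjusted p = 0.00973). In these arms the replicates agreed to within 200 bp.

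The other 3 arms had a highest window far out in at least 1 of the 20 min libraries. Left of the origin at 649201 of chromosome XIII, inside *GYL1*, the highest window lay at 17800 and 18000 bp at 20 min, at 1600 and 1800 bp in the HU block, and at 7400 and 7800 bp at 40 min. Left of the origin at 91201 of chromosome XII, inside the chaperone gene *HSP104*, it lay at 17200 and 4200 bp at 20 min against 2200 bp in both HU block libraries. Right of the origin at 337601 of chromosome XV, between *DNL4*, the ligase of end joining, and *TSR3*, it lay at 13600 and 5400 bp at 20 min and at 2400 bp in the HU block. In the arms of *HSP104* and *DNL4* the replicates disagreed on which peak was the highest. At *GYL1* the median position of the signal, in place of the highest window, moved by 200 bp.

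The 10 windows with the largest rises had at most 133 RPM in either HU block library. The largest rise was at 626001 to 628000 of chromosome XII, between *CDD1*, a cytidine deaminase gene, and *ERF2*, 30900 bp from the nearest wild type origin. There the signal was 626 and 618 RPM at 20 min against 92.2 and 79.6 RPM in the HU block (log2 change 2.85, standard error 0.21, limma adjusted p = 4.76e-08). In the wild type this window had 124 and 98.7 RPM at 20 min and 165 and 149 RPM in the HU block, and the changes of the strains differed (limma interaction, adjusted p = 2.90e-07). Similar values were found at 72001 to 74000 of chromosome XII, inside *RIX7*, a gene of ribosome biogenesis. The signal there was 591 and 561 RPM at 20 min and 133 and 102 RPM in the HU block (log2 change 2.30), against 133 and 93.3 RPM at 20 min and 128 and 89.0 RPM in the HU block of the wild type. That window lies 18200 bp to the left of the origin at *HSP104*, and the highest window of that arm lay at 17200 bp in replicate 1 at 20 min.

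Other named rises were lower in level. At 872001 to 874000 of chromosome XIII, between *YME2* and the alcohol dehydrogenase gene *ADH2*, the signal was 176 and 188 RPM at 20 min against 35.1 and 27.5 RPM in the HU block (log2 change 2.52, limma adjusted p = 0.000227). At 146001 to 148000 of chromosome II, between *MRPL16* and *APL3* and 51500 bp from a wild type origin, it was 154 and 114 RPM at 20 min and 27.2 and 25.5 RPM in the HU block (log2 change 2.29). At 222001 to 224000 of chromosome VI, between *RRT5* and *RPL29*, it was 190 and 184 RPM at 20 min and 48.3 and 24.5 RPM in the HU block. All 3 windows lay more than 20 kb from a wild type origin and were higher again at 40 min, with 312 to 340 RPM at *ADH2*, 218 and 223 RPM at *APL3* and 333 to 388 RPM at *RPL29*. The remaining named rises were at *TAF8* and *PHO84* on chromosome XIII, near *SNR64* on chromosome XI, at *FRA1* on chromosome XII and at *BUD7* on chromosome XV, with log2 changes from 2.26 to 2.59. The window at *TAF8* and those at *PHO84* and *FRA1* also rose in the wild type (limma adjusted p = 0.000144, 4.20e-05 and 1.37e-07), where the window at *FRA1* had 754 and 796 RPM at 20 min against 148 and 140 RPM in the HU block. The window near *SNR64* lost its call without replicate 2 of the HU block.

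Of the windows with the largest falls, 9 of 10 lay within 2 kb of a wild type origin, and the window in *PRP39* lay 45900 bp from any. At 358001 to 360000 of chromosome IX, inside the helicase gene *MPH1*, the signal was 243 and 263 RPM at 20 min against 1105 and 1297 RPM in the HU block (log2 change -2.24, standard error 0.24, limma adjusted p = 9.10e-07). At 914001 to 916000 of chromosome IV, between the histone genes *HTB1* and *HTA1*, it was 204 and 245 RPM at 20 min and 976 and 1043 RPM in the HU block. At 148001 to 150000 of chromosome I, inside *TFC3*, a subunit of a transcription factor of RNA polymerase III, it was 232 and 260 RPM at 20 min against 1074 and 1244 RPM in the HU block. Of the 10 named falls, 9 also fell in the wild type over the same time, with log2 changes from -2.47 to -2.01. These 9 were the 3 above and the windows in *FUS1*, *AVL9*, *NOP9*, *FLR1*, *SEC9* and *PRP39*. The windows in *FUS1*, *NOP9*, *FLR1* and *PRP39* lay within 2 kb of a window with under 0.5 of the median spike-in signal, called a region of low spike-in signal here.

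The exception was at 308001 to 310000 of chromosome XV, inside *RCL1*, a gene of ribosomal RNA processing. In *mrc1-AQ cdc45-2A* the signal was 175 and 144 RPM at 20 min against 818 and 744 RPM in the HU block (log2 change -2.29, standard error 0.29, limma adjusted p = 4.43e-06). In the wild type it was 136 and 153 RPM at 20 min against 79.0 and 85.7 RPM in the HU block. The window covers the midpoint of a wild type pair of peaks, 400 bp from its centre, and the changes of the strains differed (limma interaction, adjusted p = 1.23e-05). Scaled to the spike-in reads all 10 named falls kept a negative sign, from -0.98 to -0.82, and none of the 10 passed the threshold.

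Peaks were counted in the smoothed profiles as maxima at least 2 kb apart that stood out by at least the mean window value. There were 511 and 489 peaks at 20 min (mean 500.0 ± 15.6, SD, n = 2) against 416 and 417 in the HU block (416.5 ± 0.707), 1.23 and 1.17 times as many. The exact permutation test gave p = 0.33, the smallest it allows. The *mrc1-AQ cdc45-2A pol1-1A* strain had 538 and 516 peaks at 20 min against 415 and 423 in the HU block. The wild type went the other way, with 270 and 264 peaks at 20 min against 308 and 303 in the HU block.

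The HU block peaks of *mrc1-AQ cdc45-2A* were followed to 20 min. Of 377 peaks seen in both HU block libraries, 64 had a peak of the mean 20 min profile within 1 kb. A further 77 had lost that peak and were flanked by a 20 min peak on each side within 5 kb, and 218 had a 20 min peak on a single side. The remaining 18 had none within 5 kb. The 20 min peaks on the 2 sides of a flanked peak lay a median of 6200 bp apart (quartiles 5600 and 6600 bp). Neighbouring HU block peaks of the same origin were counted separately and can share flanking 20 min peaks. The 77 are therefore not 77 separate cases of a peak giving rise to a pair. Of the 77, 38 lay within 5 kb of a wild type origin. The windows do not separate strands, so that the direction of the forks at these peaks was not read.

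The 5 flanked peaks with the highest prominence had lower signal at 20 min, while their flanks did not all do the same. Those at *NOC4*, *GSY2*, *ORC3* and *KCS1* lay 1700, 1400, 1500 and 1600 bp from a wild type origin. A flanking peak can therefore lie across that origin from them. The most prominent was at 820801 of chromosome XVI, inside *NOC4*, with 457 and 433 RPM at 20 min against 1140 and 1210 RPM in the HU block. The 20 min peak 4800 bp to its left had 667 and 659 RPM at 20 min and 479 and 485 RPM in the HU block. The 20 min peak 1400 bp to its right had 586 and 620 RPM at 20 min and 700 and 792 RPM in the HU block, so that this flank was lower at 20 min. At 661801 of chromosome XII, inside the glycogen synthase gene *GSY2*, the left flank was also lower, with 483 and 453 RPM at 20 min against 787 and 902 RPM in the HU block. The right flank there had 656 and 698 RPM at 20 min against 432 and 476 RPM in the HU block.

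Both flanks were higher at 20 min at the other 3. The first lay at 141201 of chromosome XII, inside *ORC3*, which encodes a subunit of the origin recognition complex. The signal there was 488 and 419 RPM at 20 min against 1114 and 1220 RPM in the HU block. The 20 min peak 5000 bp to its left had 815 and 835 RPM at 20 min and 604 and 699 RPM in the HU block. The 20 min peak 2200 bp to its right had 844 and 794 RPM at 20 min and 552 and 570 RPM in the HU block. At 482601 of chromosome IV, between *KCS1* and *MLG1*, the signal was 526 and 448 RPM at 20 min against 1137 and 1177 RPM in the HU block, and 20 min peaks stood 2600 bp to the left and 5000 bp to the right.

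At 218001 of chromosome VI, inside the condensin gene *SMC2* and 18700 bp from a wild type origin, the signal was 428 and 408 RPM at 20 min against 1027 and 1099 RPM in the HU block. The wild type had 160 and 121 RPM there at 20 min and 123 and 81.5 RPM in the HU block. Peaks like this, far from wild type origins, made up 132 of the 377 HU block peaks (more than 10 kb away), and 231 lay within 5 kb of a wild type origin. Of the 132, 40 kept their position to within 1 kb (30.3%), 34 were flanked on both sides and 15 had no 20 min peak within 5 kb. Of the 231, 23 kept their position (10.0%), 38 were flanked on both sides and 2 had none. The median signal on the 132 distant peaks was 1.76 and 1.65 times the mean window at 20 min against 2.39 and 2.36 in the HU block, and on the 231 near peaks 2.70 in both 20 min libraries against 6.03 and 6.78 in the HU block. The peaks were selected for their HU block level, so that these falls carry no test.

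The mean 20 min profile had 498 peaks, of which 460 were found within 1 kb in both 20 min libraries. Of these, 75 lay within 1 kb of an HU block peak, 198 at 1 to 2 kb, 93 at 2 to 3 kb and 68 at 3 to 5 kb. The median distance was 1800 bp. New peaks were defined as those with no peak of either HU block library or of their mean within 5 kb, and 26 peaks met this rule, on 13 chromosomes. They were chosen from the values of these 4 libraries, and their levels at 20 min and in the HU block are a description with no test. The rule cuts through a dense range of distances. Just inside it, at 5 to 5.5 kb, lay 11 peaks with a median prominence of 1.99 mean windows, and just outside, at 4.5 to 5 kb, lay 25 with 2.27. With a gap of 8 kb 10 peaks remained, and with 3 kb there were 94. Without replicate 2 of the HU block 40 were new.

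All 26 new peaks had a higher signal at 20 min than in the HU block in both replicates, by 1.03 to 3.20 times (median 1.93) from the means of the replicates. Their median signal was 2.23 and 2.27 times the mean window at 20 min against 1.19 and 1.05 times in the HU block. They were lower than the other 434 peaks found in both 20 min libraries, whose median signal was 3.68 and 3.90. Of the 26, 9 stood on windows at or below the library mean in both HU block libraries and 6 on windows above 2 times the mean in both.

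**Figure D4:**
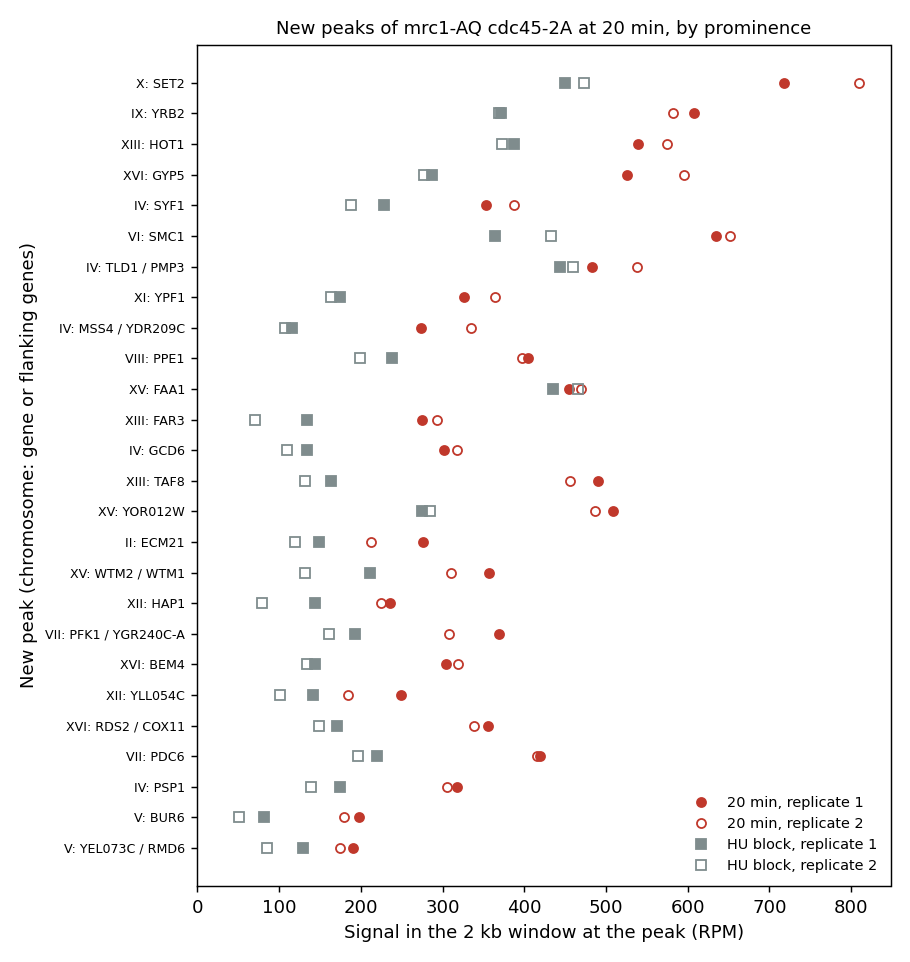
Signal in the 2 kb window at each of the 26 new peaks (x axis, RPM) in the 4 *mrc1-AQ cdc45-2A* libraries, ordered by prominence with the highest at the top (y axis, chromosome and gene, or flanking genes). At every peak both 20 min libraries lie above the HU block library of the same replicate, by the widest ratio at *TAF8* (3.20) and the narrowest at *FAA1* (1.03), where the groups overlap.

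Of the 10 most prominent new peaks, 6 lay within 5 kb of a wild type origin and had their nearest HU block peak on the other side of it. The highest was at 103001 of chromosome X, inside *SET2*, a histone H3 methyltransferase gene, with 718 and 810 RPM at 20 min against 450 and 473 RPM in the HU block. The next was at 243401 of chromosome IX, inside *YRB2*, with 607 and 582 RPM at 20 min and 371 and 369 RPM in the HU block. At 76801 of chromosome XVI, inside *GYP5*, the signal was 525 and 596 RPM at 20 min against 287 and 277 RPM in the HU block. In these 3 the groups were well apart. At 607401 of chromosome XIII, inside the transcription factor gene *HOT1*, the signal was 540 and 575 RPM at 20 min and 387 and 373 RPM in the HU block. At 121801 of chromosome VI, inside the cohesin gene *SMC1*, it was 634 and 652 RPM at 20 min and 364 and 433 RPM in the HU block. The sixth, at 1013201 of chromosome IV between *TLD1* and *PMP3*, differed least, with 482 and 538 RPM at 20 min and 444 and 459 RPM in the HU block.

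The other 4 of the 10 lay more than 40 kb from a wild type origin. At 1299201 of chromosome IV, inside the splicing factor gene *SYF1* and 139300 bp from an origin, the signal was 353 and 387 RPM at 20 min against 229 and 188 RPM in the HU block. At 254201 of chromosome XI, inside *YPF1*, it was 327 and 364 RPM at 20 min and 175 and 163 RPM in the HU block. At 249401 of chromosome VIII, inside *PPE1*, it was 404 and 397 RPM at 20 min and 238 and 199 RPM in the HU block. The wild type was low at these 3 sites, with at most 61.2 RPM at 20 min. At 870601 of chromosome IV, between *MSS4* and *YDR209C* and 29200 bp from any HU block peak, the signal was 274 and 335 RPM at 20 min against 116 and 107 RPM in the HU block. There the wild type had 363 and 279 RPM at 20 min and 210 and 216 RPM in the HU block, and a region of low spike-in signal lay within 2 kb.

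The 26 peaks fell into a near and a distant group. For 16 the nearest HU block peak was 5 to 8 kb away, and for 7 of these it stood on the other side of a wild type origin less than 5 kb from the new peak. For the other 10 it was more than 8 kb away, and none of these 10 lay within 5 kb of a wild type origin. Of the 10, 5 lay within 2 kb of a region with low spike-in signal, against 1 of the 16. Their part in these peaks was not tested, and 20 peaks remained without them.

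**Figure D5:**
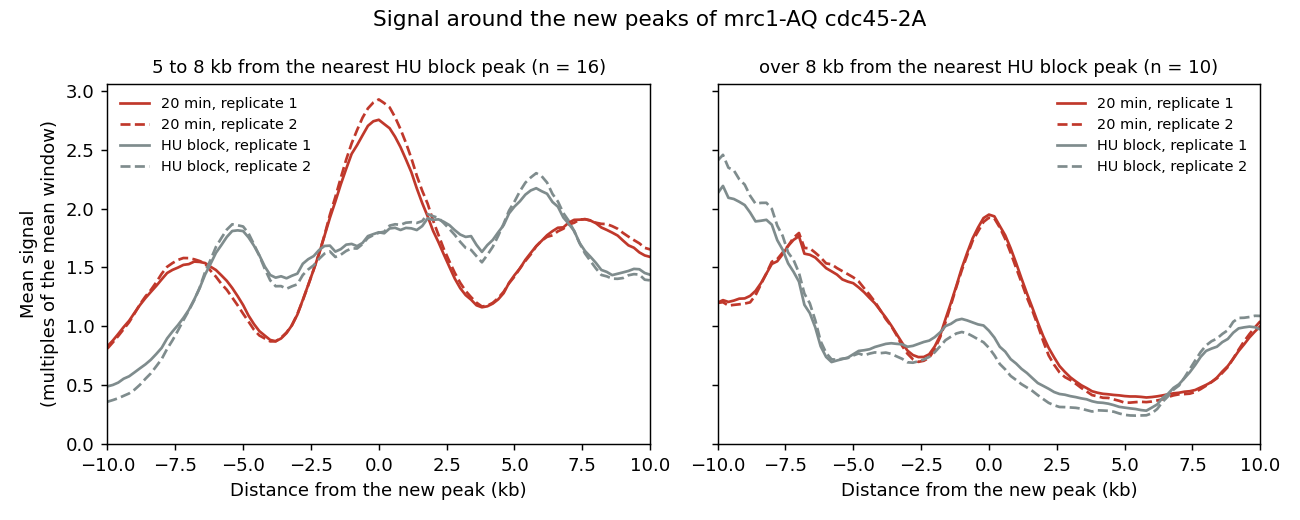
Mean signal (y axis, multiples of the mean window) by distance from the new peak (x axis, kb) for the 16 new peaks 5 to 8 kb from an HU block peak (left) and the 10 more than 8 kb from any (right) in the 4 *mrc1-AQ cdc45-2A* libraries. The 20 min curves have a maximum at 0 kb in both panels, where they lie above the HU block curves.

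The groups also differed in what followed. At 40 min the signal was lower than at 20 min in both replicates at 15 of the 16 near peaks and higher in both at 1. Of the 10 distant peaks, 3 were lower and 7 higher in both replicates at 40 min. These 7 included the peak in *FAR3* on chromosome XIII, a gene of the pheromone arrest, with 377 and 420 RPM at 40 min, 275 and 293 RPM at 20 min and 133 and 70.7 RPM in the HU block. They also included the peak in *BUR6* on chromosome V, with 374 and 392 RPM at 40 min, 197 and 179 RPM at 20 min and 81.8 and 50.7 RPM in the HU block. A peak of the 40 min profile stood within 1 kb of 11 of the 26 new peaks (42.3%) and of 44 of the 434 others (10.1%). Both directions were also seen outside the new peaks. The median signal at the 434 others was 1.42 and 1.61 times the mean window at 40 min against 3.68 and 3.90 at 20 min. Over all windows the median log2 change from 20 to 40 min was 0.48. More than 20 kb from origins lay 44.2% and 43.3% of the reads at 40 min against 32.9% and 31.1% at 20 min.

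The *mrc1-AQ cdc45-2A pol1-1A* libraries carry the same alleles of Mrc1 and Cdc45 and lay in the same pools. Any effect of the pools on the time points is therefore shared. These libraries were not used to choose the new peaks and were tested at the window that holds each of them. That window was higher at 20 min than in the HU block at 20 of 26 new peaks and lower at 0 (limma-trend, adjusted p under 0.05), where 22.7% of all windows were higher, 8.08% lower and 30.8% changed in either direction. Among the 434 other peaks 196 windows were higher and 21 lower. The median log2 change at the new peaks was 1.02, against 0.46 over all windows. The signal at the peak was higher at 20 min in both replicates at all 26. A peak of its mean 20 min profile stood within 1 kb of 22 of the 26 (84.6%) and of 424 of the 434 others (97.7%). A peak of its HU block profile stood within 1 kb of 2 of the 26 (7.69%) and of 56 of the 434 (12.9%). The new peaks thus did not stand out from the others in either respect. This distance of 1 kb is shorter than the 5 kb of the rule for new peaks. In *mrc1-AQ cdc45-2A* itself the same windows were called higher at 15 of 26, where 17.1% of all windows were, which the choice of peaks bears on. Over all windows the change over 20 min differed between these strains at 0 of 5791 windows (limma-trend interaction, 19 without adjustment, and 0 with 15 by edgeR's quasi-likelihood test).

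In the wild type the windows of the new peaks were higher at 6 and lower at 11 of 26 (limma-trend, adjusted p under 0.05), where 17.5% and 11.3% of all windows were. The 11 lower windows all belonged to the 16 near peaks. Of the 10 distant peaks 4 were higher in the wild type and 0 lower. Those 4 were in *TAF8*, *FAR3* and *BUR6* and between *RDS2* and *COX11* on chromosome XVI. At *FAR3* the wild type had 615 and 574 RPM at 20 min against 181 and 194 RPM in the HU block. A wild type HU block peak stood within 1 kb of 8 of the 26 new peaks and of 174 of the 434 others. A wild type 20 min peak stood within 1 kb of 4 and of 25 of them.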

How the data were processed

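Per the labels, reads were trimmed with Trim Galore 0.6.5 and mapped with Bowtie2 2.4.1 to build R64. The authors de-duplicated them, left out regions that are not single copy in SeqMonk and deposited signal as RPM in 60303 running windows. Each of the deposited signal values was a whole multiple of 1 read (100% within 0.01 reads), so read counts could be recovered, and the deposited RPM are divided by all mapped reads, of which 88.8% to 96.3% lay in windows in these libraries. Window starts, ends and gene names follow R64 (RefSeq gene table, named at the centre of the window or peak).

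A series of windows that do not overlap (6023, of which 5791 averaged at least 10 RPM) was tested on log2(RPM + 1) with limma 3.58.1 in 1 fit of 24 libraries in 12 groups, two-sided, with Benjamini-Hochberg adjustment. Log2 changes are understated where signal is low. edgeR 4.0.16 on recovered read counts was an alternative. Profiles were smoothed over 15 windows (Savitzky-Golay, order 2), and the weakest 40% of origins and arms with a second peak of at least 25% were left out. Tools were tested on simulated data. There limma recovered 88 of 100 windows changed by 2.0 times and 21 of 100 changed by 1.5 times. It also recovered 31 of 40 moved arms. Most changes of 1.5 times were thus missed in the simulated windows, with 2 false calls by limma. The simulation changed 200 of 5791 windows, whereas 25.1% of the windows were called in the data. That share bears on the adjusted threshold, so that the simulated rates do not carry over to these data.

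Named are the 10 most prominent new peaks, the 10 largest rises and falls (at most 1 in 10 kb) and the 5 largest outward arms. Members, lists and rules were chosen with earlier results of these data known. The tested window that holds a peak can be offset from it by up to 1 kb. Sequences were not used here.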

Additional observations from a re-analysis of the deposited data

Results flagged for a closer look

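In 4 cases the change over 20 min differed between *mrc1-AQ cdc45-2A* and the wild type by a test of the difference itself (limma interaction, adjusted p under 0.05). It differed in signal at 949 of 5791 windows, in fork position at 36 of 132 arms, in summed signal at 86 arms and in peak width at 81 arms. The arms and origins were read from wild type HU block peaks, which bears on these counts for arms. Groups of 2 libraries were not searched for outlying samples.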

How the results depend on the processing

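Of the results that answer a comparison, 80 of 102 alternatives stayed within 1.5 times the count or within the spread between replicates. For the windows of *mrc1-AQ cdc45-2A*, a fit of only the 4 libraries compared gave 2231, leaving out a library of that strain gave 955 to 1390 and leaving out a wild type library 1426 to 1445. Scaling to spike-in reads left 1464 windows, all higher, and edgeR 1411. For the interaction with the wild type it left 0 (417 without adjustment), the pool as a random block gave 1732, and leaving out a library of either strain 612 to 1041. In the wild type spike-in scaling gave 257 windows. In *mrc1-AQ cdc45-2A pol1-1A* it gave 807 and quantile normalization 875. The alternatives for these strains, spike-in scaling of the interaction, the pool block for arms and the arm interaction were chosen after seeing the data.

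Leaving out a mutant library gave 54 to 66 called arms, and a wild type library 83 to 88. The arm interaction gave 55 with arms of 10 kb, 113 with the median position of the signal, 62 with no origin left out and 28 to 65 without a library of either strain. The change of the median fork distance was 1850 bp with no origin left out and 1950 to 2250 bp without a mutant library. The ratio of peak numbers was 1.15 without smoothing and 1.17 to 1.23 without a mutant library. New peaks numbered 94 and 10 with gaps of 3 and 8 kb and 31 to 40 without a mutant library. Under scaling to spike-in reads the 10 named falls no longer passed the threshold and kept their sign, from -0.98 to -0.82.

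Same-numbered replicates deviated together in each of 4 strains and between all time points, with 12 correlations from 0.288 to 0.665 (0.665 for 20 min and HU block of *mrc1-AQ cdc45-2A*). The labels do not say what a number shares, and with 2 replicates the block is given as an alternative only. With the replicate number as a block, 1762 windows, 96 arms, 1304 interaction windows and 45 interaction arms were called, with 1853 windows in the wild type and 2074 in *mrc1-AQ cdc45-2A pol1-1A*. Annotated ARS elements were not used here, so that alternative was not run. Window width and the 200 bp step limit how finely positions can be read.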
